A study of Mus musculus with 28 samples.

Results

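The genes of sterol and fatty acid synthesis were followed by polyA RNA-seq through mouse satellite cells, which regenerate skeletal muscle. The set holds 32 of the 22552 genes listed, chosen by symbol as named enzymes and regulators of the pathways. The choice was made with earlier results of these data known. The set was divided into 18 genes of the sterol steps, 6 genes of sterol transport and control, and 8 genes of the fatty acid branch. Both genotypes were on a C57Bl/6 background. SIRT1 is a protein deacetylase that consumes NAD. SIRT1mKO mice, called KO here, carried a Pax7cre/+ knock-in and a floxed exon 4 of Sirt1, so that Cre acts in cells that express Pax7, and the WT mice are given with no allele. KO_FI and WT_FI cells were freshly isolated by cell sorting. KO_Cul and WT_Cul cells were proliferating cultures, fed 20% fetal bovine serum with bFGF at 12.5 ng/ml. KO_Diff and WT_Diff cells had then spent 24 hours in medium with 2% horse serum. The labels give no age or sex of the animals, nor whether replicate libraries stem from different animals or cultures. The p-values therefore reflect the variation among these libraries alone, part of which may be technical.

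Cells build cholesterol from acetyl-CoA through mevalonate and squalene, and fatty acids from the same precursor through malonyl-CoA. The transcription factors SREBP1 and SREBP2, encoded by Srebf1 and Srebf2, drive the genes of these pathways once the sterol sensor Scap has carried them from the endoplasmic reticulum to the Golgi, where they are cleaved. The Insig1 and Insig2 proteins hold Scap in the endoplasmic reticulum when sterols are plentiful, and Insig1 is itself an SREBP target, which closes a feedback loop.

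The libraries fell into 4 tables that the authors processed separately. The FI table held 3 KO_FI and 3 WT_FI libraries. The Cul table held 2 KO_Cul and 2 WT_Cul libraries, the Diff table held 2 KO_Diff and 2 WT_Diff, and a table of WT states held 2 WT_Cul and 2 WT_FI. The total of estimated fragments lay between 28010691 and 65324684 for libraries of the FI table, 75674366 and 82590642 for Cul, 71858446 and 82825550 for Diff, and 24254119 and 31643216 for the WT states. A library is named by its group and its index in the table, which counts from 0 and is not the replicate number of the labels. Levels are CPM, the count of a gene relative to the TMM-scaled total of its library, and TMM scales the libraries of a table to a common composition. Sirt1 measured 37.6 to 63.4 CPM in KO_FI and 47.4 to 81.4 CPM in WT_FI, 33.8 and 46.9 CPM in KO_Cul against 62.2 and 66.8 CPM in WT_Cul, and 41.4 and 28.8 CPM in KO_Diff against 52.1 and 28.2 CPM in WT_Diff. Gene totals cannot show the loss of an exon, so they do not check the genotype labels. Pax7, which defines satellite cells, measured 905 to 1056 CPM in KO_FI and 832 to 1059 CPM in WT_FI, but 117 to 138 CPM in WT_FI of the table of WT states.

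One gene, Hmgcs1, the synthase that makes hydroxymethylglutaryl-CoA, was listed at 0 in all 18 libraries, as were 2778 of 22496 genes. An exact 0 in such a table can be a failed estimate, so nothing is read from it. The other 31 genes passed the filter on low counts in every comparison.

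Proximal promoters were available in RefSeq for 25 of the 32 genes (GRCm38.p6), and the 250 bases before each start were searched on both strands for 3 motifs. The CCAAT box bound by NF-Y, a partner of SREBP (CCAAT, or ATTGG on the other strand), was found in 20 of the 25 genes, 80% of them, against 37.5% of all 27025 genes with a promoter. The E-box CACGTG was found in 5, Dhcr7, Hsd17b7, Insig1, Sc5d and Scap, against 6.86% of all genes. The sterol regulatory element TCACNCCAC was found in Hmgcs1 alone, against 1.22% of all genes. A match is a description of the letters and not a binding site. The promoters of Insig1 and Acacb are shown because these genes passed the test between WT states, and that of Hmgcs1 for its sterol regulatory element. Those of Mvk and Mvd are examples of the sterol steps, nearly all of which moved together between differentiation libraries. Mvk has the most CCAAT matches of the 25 genes, and whether matches go with such movement was not tested. Capitals mark the motif matches.
Insig1, chr5:28071162-28071411, plus strand: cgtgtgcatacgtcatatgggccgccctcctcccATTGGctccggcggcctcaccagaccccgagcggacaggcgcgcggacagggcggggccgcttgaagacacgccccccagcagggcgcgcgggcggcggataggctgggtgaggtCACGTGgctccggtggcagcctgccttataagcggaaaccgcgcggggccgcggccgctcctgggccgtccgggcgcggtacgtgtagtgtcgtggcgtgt
Acacb, chr5:114165268-114165517, plus strand: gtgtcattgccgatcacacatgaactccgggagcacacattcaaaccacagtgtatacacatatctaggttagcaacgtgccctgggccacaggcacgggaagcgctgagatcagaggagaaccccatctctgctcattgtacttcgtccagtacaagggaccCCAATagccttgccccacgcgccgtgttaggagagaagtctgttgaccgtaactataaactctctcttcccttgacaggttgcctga
Mvk, chr5:114444019-114444268, plus strand: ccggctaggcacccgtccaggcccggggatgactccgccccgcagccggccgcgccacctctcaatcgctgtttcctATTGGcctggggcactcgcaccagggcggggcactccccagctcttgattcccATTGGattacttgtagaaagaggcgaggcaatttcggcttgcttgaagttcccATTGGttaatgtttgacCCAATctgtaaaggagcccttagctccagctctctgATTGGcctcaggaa
Mvd, chr8:122443423-122443672, minus strand: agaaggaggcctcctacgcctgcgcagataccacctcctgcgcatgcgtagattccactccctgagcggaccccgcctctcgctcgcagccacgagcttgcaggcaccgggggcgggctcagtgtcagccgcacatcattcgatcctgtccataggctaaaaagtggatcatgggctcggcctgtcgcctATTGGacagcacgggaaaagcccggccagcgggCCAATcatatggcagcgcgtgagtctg
Hmgcs1, chr13:119690101-119690350, plus strand: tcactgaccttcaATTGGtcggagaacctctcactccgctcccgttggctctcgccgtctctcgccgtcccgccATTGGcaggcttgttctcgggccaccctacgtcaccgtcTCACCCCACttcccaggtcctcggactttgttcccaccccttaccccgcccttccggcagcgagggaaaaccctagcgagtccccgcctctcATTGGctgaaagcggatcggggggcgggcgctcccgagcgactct
Mvk carries 5 matches to the CCAAT box within its window, Hmgcs1 carries 3 beside its sterol regulatory element, and Mvd carries 2. Insig1 carries 1 CCAAT box and 1 E-box, and Acacb a single CCAAT box.

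Before the comparisons, the libraries of index 0 in the FI table stood apart from the others in some of these genes. Idi1, the isomerase that makes dimethylallyl diphosphate, measured 4.20, 123 and 128 CPM in KO_FI and 3.13, 140 and 151 CPM in WT_FI, in order of index. Fdps, which makes farnesyl diphosphate, measured 11.1, 70.0 and 59.2 CPM in KO_FI and 9.16, 83.6 and 69.6 CPM in WT_FI. Acaca, the cytosolic acetyl-CoA carboxylase, measured 26.8, 116 and 114 CPM in KO_FI and 24.4, 107 and 102 CPM in WT_FI. In each of these genes the libraries of index 0 of both genotypes lay low together. Relative to indices 1 and 2, index 0 was lower by a log2 ratio of -5.03 for Idi1, -2.74 for Fdps, -2.08 for Acaca and -1.35 for Fdft1, the squalene synthase. Over all 15146 genes tested in that table, 400 (2.64%) lay more than 4-fold lower in index 0 and 27 (0.178%) more than 4-fold higher. The share of values above 0 that were not whole was 7.23% to 8.18% in the libraries of index 0 and in the table of WT states, against 1.42% to 2.82% in the other 12 libraries. Idi1 was lower still in the table of WT states, at 1.00 and 1.74 CPM in WT_Cul and 1.43 and 2.14 CPM in WT_FI. Sqle, the squalene epoxidase, showed no such gap within the FI table, with 70.4 to 73.9 CPM in KO_FI and 58.8 to 77.1 CPM in WT_FI. Fibroblast markers stood apart in the same libraries: the 8 markers of fibroblasts and fibro-adipogenic progenitors summed to 6849, 5070 and 4674 CPM in KO_FI and 6695, 4929 and 5220 CPM in WT_FI, in order of index. Pdgfra, the receptor that marks fibro-adipogenic progenitors, measured 70.6, 20.2 and 19.5 CPM in KO_FI and 64.8, 12.6 and 24.2 CPM in WT_FI. The part of the authors' handling of these libraries, or of these cells, in the low values was not tested.

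**Figure D1:**
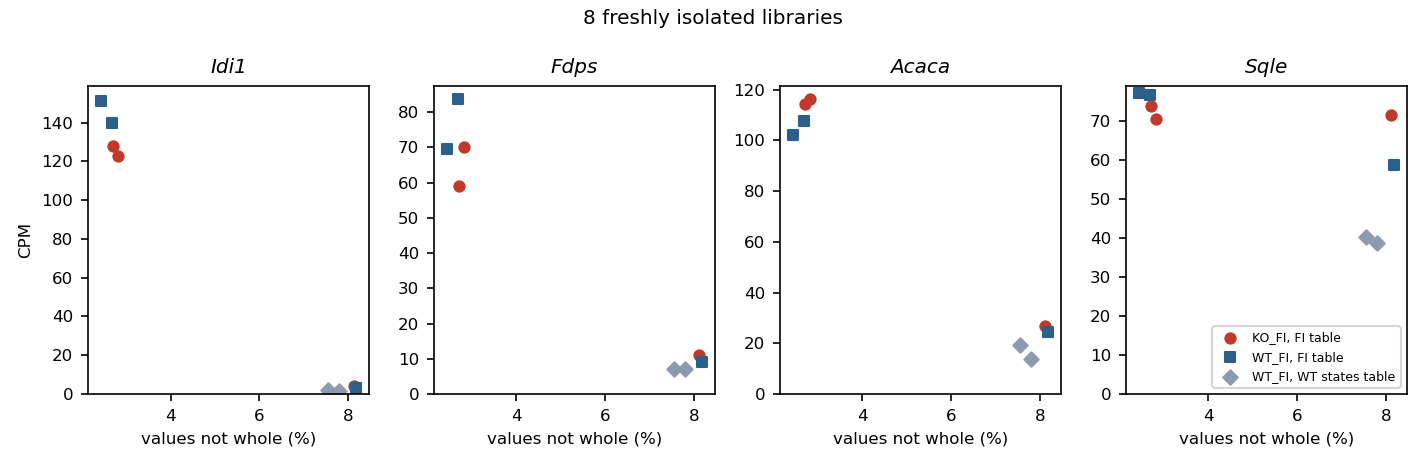
CPM of Idi1, Fdps, Acaca and Sqle (y axes, from 0) against the share of values that were not whole (x axes, percent) in 8 freshly isolated libraries, 1 point per library: KO_FI (circles) and WT_FI (squares) of the FI table and WT_FI of the table of WT states (diamonds). The 4 libraries on the right lie under 30 CPM for the first 3 genes, as with Idi1 at 4.20 and 3.13 CPM in index 0 of KO_FI and WT_FI. Sqle measures 71.7 and 58.8 CPM in index 0 of KO_FI and WT_FI. In WT_FI of the table of WT states Sqle measures 38.7 and 40.2 CPM.

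Proliferating WT cells were set against freshly isolated WT cells within the table of WT states. Acacb and Insig1 fell in WT_Cul, several desaturases had lower values that missed the threshold, and the enzymes of the sterol steps took no common direction. By edgeR's quasi-likelihood test with Benjamini-Hochberg adjustment over all genes of the table, 2 of 31 genes passed the threshold of 0.05, both lower in WT_Cul, where 28.6% of all 14680 genes passed (12.6% higher and 16.0% lower). Acacb, the mitochondrial acetyl-CoA carboxylase whose product restrains fatty acid oxidation, measured 2.16 and 3.23 CPM in WT_Cul and 33.1 and 42.3 CPM in WT_FI. The groups lay far apart, at 2.69 ± 0.754 CPM in WT_Cul and 37.7 ± 6.49 CPM in WT_FI (SD, n = 2 each), a log2 fold change of -3.80 with a standard error (SE) of 0.46 and an adjusted p of 0.0117 (edgeR). Insig1 measured 27.7 and 23.3 CPM in WT_Cul and 62.6 and 62.3 CPM in WT_FI, with no overlap. It fell by 1.29 on the log2 scale in WT_Cul (SE 0.33, adjusted p 0.0413 by edgeR's quasi-likelihood test). Without the WT_FI library of index 0 its adjusted p was 0.307 and without that of index 1 it was 0.333, over a range of 0.0101 to 0.333 across the alternatives, while Acacb passed under all 11 alternatives run. The number of the 31 that passed moved with the number over all genes. It was 8 without the WT_Cul library of index 0, where 38.3% of all genes passed, and 13 without that of index 1, where 53.0% passed. Without the WT_FI library of index 0, or of index 1, it was 1, where 14.0% and 13.6% of all genes passed.

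A group of 5 further genes lay just outside the threshold, picked once their values were known. All 5 had lower values in WT_Cul and groups that did not overlap. Of the 31 genes, 7 had an unadjusted p under 0.05 (edgeR), against 6509 of all 14680 genes, which is a larger share. These 5 genes therefore do not set the list apart from the other genes of the table. Insig2 measured 45.3 and 39.1 CPM in WT_Cul and 95.4 and 91.4 CPM in WT_FI (log2 -1.15, SE 0.32, adjusted p 0.0506, edgeR). Scd1 and Scd2 are stearoyl-CoA desaturases, which put the first double bond into saturated fatty acids. Scd1 measured 52.6 and 87.6 CPM in WT_Cul and 161 and 185 CPM in WT_FI (log2 -1.30, SE 0.40, adjusted p 0.0634, edgeR). Scd2 measured 137 and 232 CPM in WT_Cul and 454 and 430 CPM in WT_FI (log2 -1.26, SE 0.42, adjusted p 0.0763, edgeR). Fads2, a desaturase of polyunsaturated fatty acids, measured 3.08 and 12.8 CPM in WT_Cul and 31.6 and 42.4 CPM in WT_FI. Its log2 fold change was -2.21 (SE 0.74, adjusted p 0.0780, edgeR), and its WT_Cul libraries differed from each other by a larger ratio than its WT_FI libraries did. Tm7sf2, a sterol reductase of the late pathway, measured 1.92 and 0.981 CPM in WT_Cul and 6.62 and 4.66 CPM in WT_FI (log2 -1.96, SE 0.61, adjusted p 0.0656, edgeR).

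Estimates of the 17 sterol step genes lay above 0 for 10 and below 0 for 7, with a median log2 fold change of 0.10 against 0.06 over all genes tested. For the 6 genes of transport and control the median was -0.66, with 5 below 0, and for the 8 fatty acid genes it was -0.84, with 5 below 0. These estimates average WT_Cul libraries that differed from each other. In order of index, the sterol steps summed to 535 and 340 CPM in WT_Cul and 381 and 383 CPM in WT_FI. The fatty acid branch summed to 631 and 1264 CPM in WT_Cul and 1145 and 1216 CPM in WT_FI. Groups did not overlap in 5 genes higher in WT_Cul (Acat2, Mvd, Sqle, Scap and Acaca), against 35.5% of all genes. They did not overlap in 11 genes lower in WT_Cul (Tm7sf2, Sc5d, Dhcr7, Stard4, Insig1, Insig2, Acacb, Scd1, Scd2, Fads1 and Fads2), against 35.4% of all genes. These counts and medians include Idi1, Fdps and Acaca, which were low across this table. Acaca measured 24.1 and 42.3 CPM in WT_Cul here, against 176 and 170 CPM in WT_Cul of the Cul table. Sqle had the smallest p among the sterol steps with a higher value in WT_Cul, 88.4 and 59.0 CPM in WT_Cul and 38.7 and 40.2 CPM in WT_FI (log2 0.90, SE 0.36, adjusted p 0.118, edgeR). Fasn, the fatty acid synthase, measured 175 and 515 CPM in WT_Cul and 179 and 207 CPM in WT_FI, so that only the WT_Cul library of index 1 lay above the WT_FI libraries. Stard4, a carrier that moves cholesterol between membranes, measured 5.76 and 14.1 CPM in WT_Cul and 20.3 and 31.7 CPM in WT_FI (adjusted p 0.127, edgeR).

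**Figure D2:**
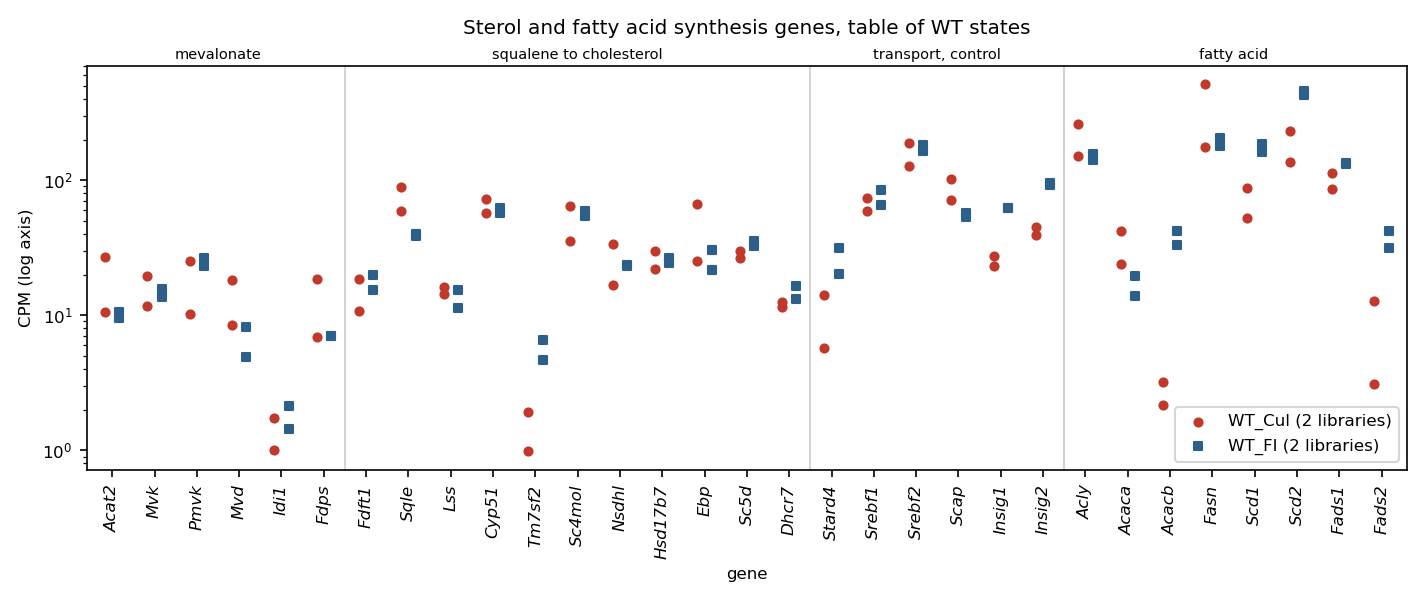
CPM (log axis) of the 31 genes tested (x axis, by step of the pathway) in the table of WT states, 1 point per library, with WT_Cul as circles left of WT_FI as squares. Acacb shows the widest gap, 2.16 and 3.23 CPM in WT_Cul against 33.1 and 42.3 CPM in WT_FI, while the sterol steps scatter around their WT_FI values.

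Markers of other cell types moved with this comparison. The summed level of 8 adipocyte markers was 12.5 to 19.6 CPM in WT_Cul and 262 to 295 CPM in WT_FI, most of it Fabp4, with 7 and 5 of the 8 under 1 CPM and Retn at 0 in both groups. The 8 markers of fibroblasts and fibro-adipogenic progenitors summed to 988 to 1705 CPM in WT_Cul and 19941 to 28892 CPM in WT_FI. Schwann cell markers summed to 329 to 614 CPM in WT_Cul and 3257 to 3415 CPM in WT_FI, endothelial markers to 46.3 to 100.4 CPM in WT_Cul and 514 to 611 CPM in WT_FI, and macrophage and leukocyte markers to 15.6 to 25.7 CPM in WT_Cul and 193 to 242 CPM in WT_FI. Satellite cell markers summed to 1874 to 3889 CPM in WT_Cul and 1204 to 1418 CPM in WT_FI, but they did not move as one. Myod1, the myogenic factor of activated cells, measured 2404 and 685 CPM in WT_Cul and 45.0 and 13.9 CPM in WT_FI, while Pax7 measured 19.7 and 70.6 CPM in WT_Cul and 138 and 117 CPM in WT_FI. The FI table was processed separately, and its levels are set beside these without a test. Its fibroblast markers summed to 4674 to 6849 CPM in KO_FI and 4929 to 6695 CPM in WT_FI, and its Pax7 was several-fold higher. There Acacb measured 83.2 to 95.8 CPM in KO_FI and 71.0 to 88.9 CPM in WT_FI. In WT_FI of that table Insig1 measured 179 to 311 CPM and Scd1 258 to 359 CPM. Scd2 measured 491 to 794 CPM and Fads2 27.6 to 46.3 CPM in the same libraries. The part of the other cell types in the lower Acacb, Insig1 and desaturase levels of WT_Cul was not tested. Genes of differentiating muscle split the WT_Cul libraries and did not separate the groups. Acta1 measured 1458 and 39.0 CPM in WT_Cul and 162 and 149 CPM in WT_FI, and Myog measured 807 and 9.05 CPM in WT_Cul and 230.5 and 13.3 CPM in WT_FI. The summed sterol steps split the same WT_Cul libraries, at 535 and 340 CPM. The part of muscle differentiation in this split was not tested. In bulk RNA, fewer cells of a type and less RNA per cell cannot be told apart.

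A second set of libraries allowed the same states to be put side by side across tables, with no test because the tables were normalised separately. In the Cul table WT_Cul had 1.24 and 2.41 CPM of Acacb, against 88.9, 72.4 and 71.0 CPM for WT_FI in the FI table. Insig1 had 45.1 and 32.01 CPM in WT_Cul and 179, 311 and 308 CPM in WT_FI, and Scd1 had 30.2 and 54.9 CPM in WT_Cul and 258 to 359 CPM in WT_FI. All 3 genes lay lower in WT_Cul in this set too. Of the 31 genes, 22 lay lower in every WT_Cul library than in every WT_FI library, against 44.5% of the 13414 genes tested in both tables, and 3 (Scap, Acly and Acaca) lay higher, against 31.8%. The sterol steps differed between the sets: 12 of 17 lay lower in WT_Cul here, among them Lss, the lanosterol synthase, with 16.03 and 16.3 CPM in WT_Cul and 26.3 to 38.8 CPM in WT_FI. In the table of WT states Lss measured 14.4 and 16.3 CPM in WT_Cul and 11.3 and 15.3 CPM in WT_FI, where the groups overlapped.

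Related genes outside the set were counted from 3 lists, and their counts stand beside 12.6% of all genes higher and 16.0% lower in this comparison. Of 12 other SREBP pathway and isoprenoid genes tested between WT states, 2 rose and 1 fell. Acss2, the cytosolic acetyl-CoA synthetase, measured 4.76 and 5.13 CPM in WT_Cul and 20.8 and 21.4 CPM in WT_FI (log2 -2.09, SE 0.40, adjusted p 0.0208, edgeR). Me1, the malic enzyme that supplies NADPH for lipid synthesis, measured 46.0 and 39.5 CPM in WT_Cul and 11.6 and 13.0 CPM in WT_FI (log2 1.80, SE 0.36, adjusted p 0.0234, edgeR). Neither gene's groups overlapped. Of 10 genes of sterol efflux, storage and the sterol receptor LXR, 1 rose and 2 fell. Mylip, a ubiquitin ligase induced by LXR, measured 18.01 and 17.8 CPM in WT_Cul and 77.9 and 87.0 CPM in WT_FI (log2 -2.21, SE 0.33, adjusted p 0.0149, edgeR). Cyp27a1, a sterol hydroxylase, measured 1.72 and 0.949 CPM in WT_Cul and 16.9 and 14.3 CPM in WT_FI (log2 -3.55, SE 0.54, adjusted p 0.0152, edgeR). Of 13 genes of acyl-CoA use and glycerolipid synthesis, 2 rose and 2 fell. Thrsp, a promoter of lipogenesis in liver and fat, measured 0.400 and 0.222 CPM in WT_Cul and 9.84 and 4.91 CPM in WT_FI (log2 -4.56, SE 0.73, adjusted p 0.0163, edgeR). Dgat2, which makes triglyceride, was higher, with 24.9 and 15.7 CPM in WT_Cul and 6.18 and 4.27 CPM in WT_FI (log2 1.95, SE 0.48, adjusted p 0.0369, edgeR). Without the WT_FI library of index 0 the calls of Acss2 (adjusted p 0.129), Me1 (0.227) and Dgat2 (0.158) were lost, and without that of index 1 those of Acss2 (0.164), Me1 (0.197), Dgat2 (0.317) and Mylip (0.0731).

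In differentiation medium the sterol steps stood high, with a wide spread between libraries. Set side by side with the Cul table and without a test, all 17 sterol step genes were higher in each of the 4 Diff libraries than in each of the 4 Cul libraries, against 15.6% of the 13692 genes tested in both tables. The same held for 4 of the 6 genes of transport and control and 6 of the 8 fatty acid genes. The summed level of the sterol steps was 1344 and 5322 CPM in KO_Diff and 2036 and 4778 CPM in WT_Diff, against 322 and 353 CPM in KO_Cul and 376 and 302 CPM in WT_Cul. The fatty acid branch summed to 1820 and 4411 CPM in KO_Diff and 2268 and 2906 CPM in WT_Diff, against 1124 and 988 CPM in KO_Cul and 1083 and 997 CPM in WT_Cul. Scap, the sensor, was the 1 gene lower in every Diff library, against 10.6% of all genes, at 93.3 and 62.6 CPM in KO_Diff and 84.5 and 79.4 CPM in WT_Diff against 112 to 146 CPM in KO_Cul and 115 and 117 CPM in WT_Cul.

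**Figure D3:**
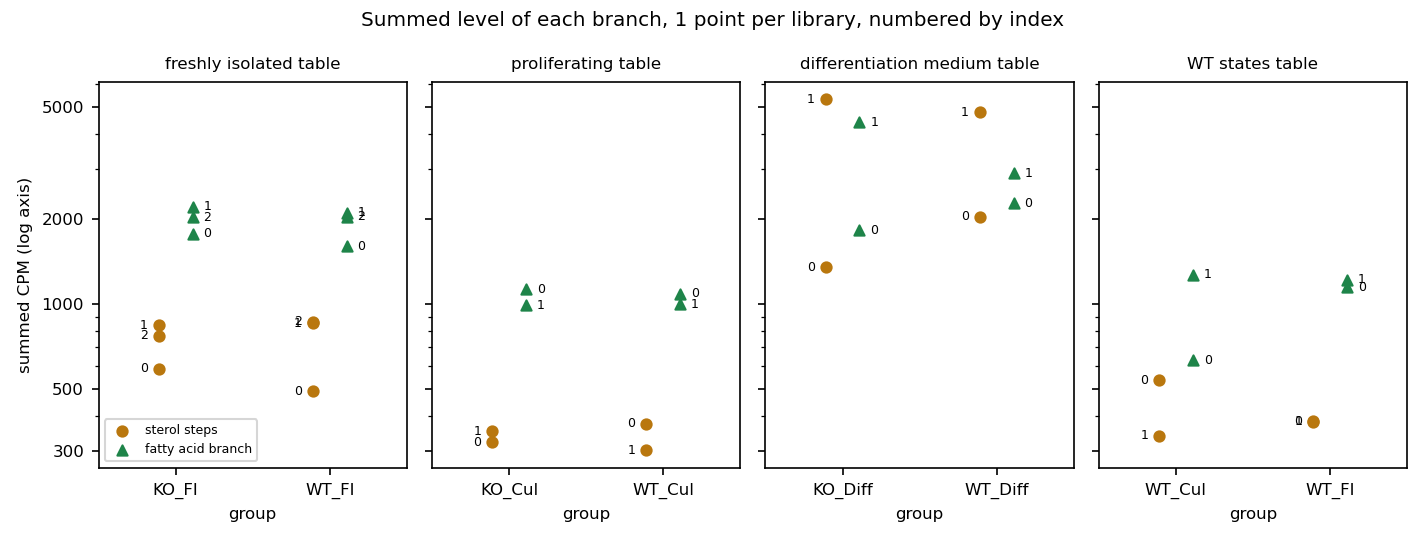
Summed CPM (log axis) of the 17 sterol step genes (circles) and the 8 fatty acid genes (triangles) for each of the 18 libraries, in 1 panel per table, each point numbered by its index. In differentiation medium the sterol steps reach 5322 CPM in KO_Diff and 4778 CPM in WT_Diff for index 1, against 1344 and 2036 CPM for index 0. Levels are to be compared within a panel.

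Some marker sums were also higher in every Diff library than in every Cul library. The 8 mature myofibre markers summed to 76.5 to 17297 CPM in the Diff libraries and 35.5 to 75.9 CPM in the Cul libraries. Their lowest Diff sum, in WT_Diff of index 0, was close to their highest Cul sum, in KO_Cul of index 0. The fibroblast markers summed to 589 to 707 CPM in KO_Diff and 283 to 425 CPM in WT_Diff, against 121 to 248 CPM in KO_Cul and 76.8 to 195 CPM in WT_Cul. The Schwann cell markers summed to 86.3 to 129 CPM in KO_Diff and 93.3 to 124 CPM in WT_Diff, against 33.9 to 41.8 CPM in KO_Cul and 29.3 to 33.5 CPM in WT_Cul. The fibroblast and Schwann cell sums were lower in index 1 than in index 0 of either Diff genotype, where the sterol steps were higher. The sums of the satellite cell, adipocyte, endothelial, and macrophage and leukocyte markers overlapped between Diff and Cul libraries. The part of any of these cell types in the higher sterol levels was not tested.

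Within the Diff table the libraries of index 1 held more sterol transcripts than those of index 0 in both genotypes. The log2 ratio of index 1 over index 0 had a median of 1.89 over the sterol steps in KO_Diff, above 0 for 17 of 17 genes, and of 1.58 in WT_Diff, above 0 for 16 of 17. Over all genes it was above 0 for 49.9% in KO_Diff and 51.0% in WT_Diff. Its median over all 14482 genes tested was near 0 (-0.00 in KO_Diff and 0.03 in WT_Diff). Mvd, the mevalonate diphosphate decarboxylase, measured 37.0 and 293 CPM in KO_Diff and 60.6 and 325 CPM in WT_Diff, in order of index. Nsdhl, a sterol dehydrogenase, measured 58.2 and 389 CPM in KO_Diff and 84.4 and 338 CPM in WT_Diff. In both genes the library of index 1 was the higher in either genotype. Muscle genes moved with the index: 8 mature myofibre markers summed to 193 and 17297 CPM in KO_Diff and 76.5 and 8747 CPM in WT_Diff. Myh3, the embryonic myosin heavy chain, measured 4.72 and 3933 CPM in KO_Diff and 0.945 and 612 CPM in WT_Diff, and Myog measured 149 and 3619 CPM in KO_Diff and 61.2 and 2015 CPM in WT_Diff. The part of muscle differentiation in the sterol levels was not tested, and the index is a number in the table and not a batch named in the labels.

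Libraries of the same index were also set side by side, as a description, since nothing in the labels pairs them. KO_Diff of index 0 was lower than WT_Diff of index 0 in 17 of 17 sterol step genes, with a median log2 ratio of -0.53 and a range of -0.85 to -0.30, against 49.6% of all genes lower and 50.3% higher. KO_Diff of index 1 was higher than WT_Diff of index 1 in 11 and lower in 6, with a median of 0.07, against 49.7% of all genes higher and 50.2% lower. For the fatty acid branch, KO_Diff of index 0 was lower in 7 of 8 genes (median -0.28) and KO_Diff of index 1 was higher in 7 of 8 (median 0.40). Each such ratio compares 1 library with 1 other, so it has no replicate check.

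**Figure D4:**
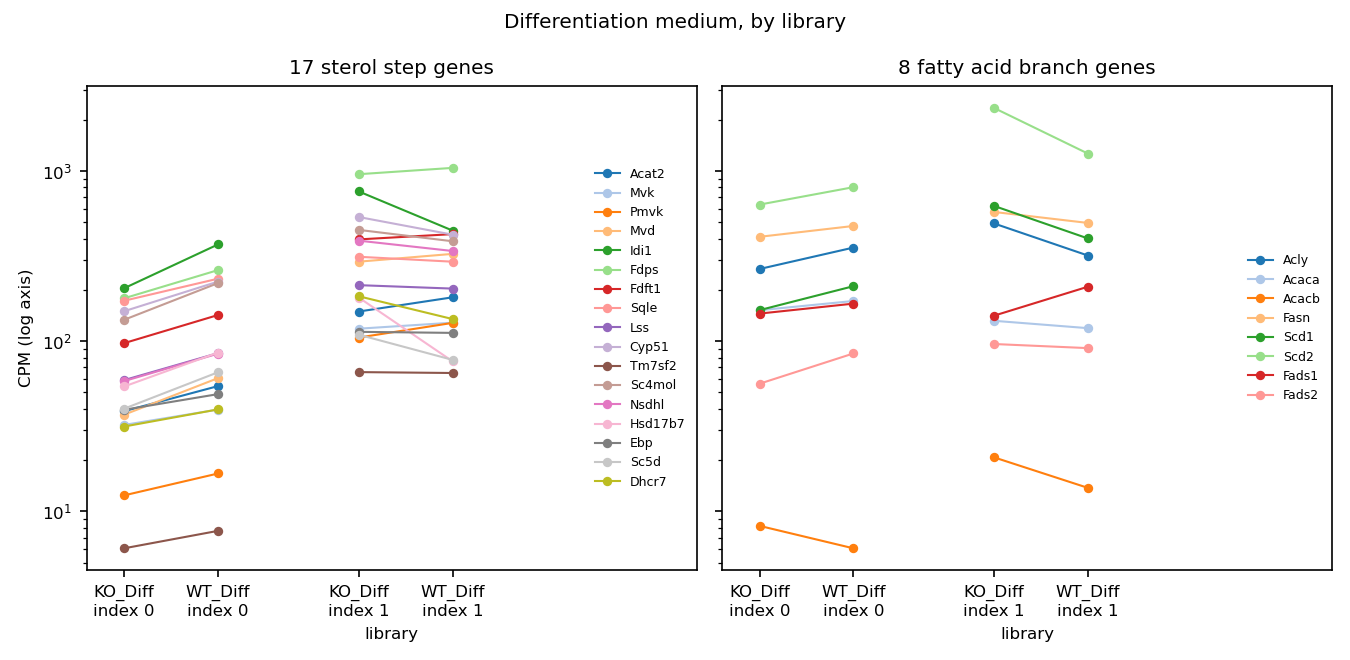
CPM (log axis) in the 4 libraries of the Diff table (x axis, KO_Diff left of WT_Diff within each index) for the 17 sterol step genes and the 8 fatty acid genes, with lines drawn between KO_Diff and WT_Diff of the same index to compare their levels, not as pairs. All sterol step genes lie lower in KO_Diff of index 0, while those of index 1 go either way, as with Mvd at 293 CPM in KO_Diff and 325 CPM in WT_Diff.

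The tests of KO_Diff against WT_Diff called none of the 31 genes (0% of 14482 genes passed, and 27 genes had an unadjusted p under 0.05, none of the 31 among them). DESeq2 and limma also called 0 of the 31. The smallest p-values among the sterol steps belonged to Hsd17b7, Acat2 and Idi1. Hsd17b7, a sterol ketoreductase, measured 54.1 and 180 CPM in KO_Diff and 85.6 and 76.0 CPM in WT_Diff (log2 0.53, SE 0.63, adjusted p 1.00, edgeR). Acat2, the acetoacetyl-CoA thiolase that opens the pathway, measured 38.8 and 149 CPM in KO_Diff and 54.4 and 181 CPM in WT_Diff (log2 -0.32, SE 0.87). Idi1 measured 204 and 756 CPM in KO_Diff and 369 and 445 CPM in WT_Diff (log2 0.24, SE 0.69). All 3 overlapped between genotypes.

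In the fatty acid branch, Fads1, a desaturase of polyunsaturated fatty acids, measured 145 and 141 CPM in KO_Diff and 166 and 209 CPM in WT_Diff (log2 -0.39, SE 0.36), and was the 1 gene lower in KO_Diff without overlap, against 6.85% of all genes. Scd2 measured 633 and 2337 CPM in KO_Diff and 801 and 1261 CPM in WT_Diff (log2 0.53, SE 0.73). Acacb measured 8.22 and 20.7 CPM in KO_Diff and 6.07 and 13.7 CPM in WT_Diff (log2 0.55, SE 0.70). Both overlapped between genotypes, and their KO_Diff libraries differed from each other by more than KO_Diff and WT_Diff did on average. Srebf2 was the 1 gene higher in KO_Diff without overlap, against 6.39% of all genes, at 387 and 424 CPM in KO_Diff and 365 and 353 CPM in WT_Diff. Its log2 fold change of 0.17 had a 95% interval of -0.76 to 1.11. Srebf1 measured 111 and 112 CPM in KO_Diff and 95.8 and 119 CPM in WT_Diff. Insig1 measured 196 and 379 CPM in KO_Diff and 278 and 274 CPM in WT_Diff. Srebf1 in KO_Diff lay between the WT_Diff libraries, and Insig1 in KO_Diff lay to either side of them. The spread between libraries left wide intervals, such as -3.68 to 3.07 for Pmvk, the phosphomevalonate kinase, so that large differences could not be seen in these 4 libraries.

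In freshly isolated cells the KO and WT levels lay close together. None of the 31 genes passed in KO_FI against WT_FI (0% of 15146 genes passed by edgeR, and 621 genes had an unadjusted p under 0.05, none of the 31 among them), and DESeq2 and limma called 0 of the 31 as well. Estimates ran from -0.21 to 0.43 on the log2 scale, 17 above and 14 below 0. The medians were -0.00 for the sterol steps, -0.04 for transport and control and 0.13 for the fatty acid branch (7 of 8 above 0), beside -0.03 over all genes. In no gene did the groups fail to overlap, where 5.57% of all genes lay higher in KO_FI and 3.65% lower without overlap. Same-index libraries deviated together in this table, where index 0 stood apart in both genotypes, so they were also compared index by index. Nothing in the labels pairs them, so neither the counts nor the block that follow rest on known pairs. KO_FI was higher than WT_FI at all 3 indices in 9 of the 31 genes (Lss, Tm7sf2, Nsdhl, Sc5d, Srebf1, Srebf2, Acly, Acaca and Acacb), against 16.1% of all genes, and lower at all 3 in 2 (Ebp and Stard4), against 16.6%. With the index as a block none of the 31 passed. The unadjusted p was under 0.05 for 2 of them, against 8.13% of all genes: Nsdhl (log2 0.40, SE 0.12, adjusted p 0.545, edgeR) and Lss (log2 0.28, SE 0.0995, adjusted p 0.606, edgeR).

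Lss measured 34.4, 45.0 and 41.6 CPM in KO_FI and 26.3, 35.6 and 38.8 CPM in WT_FI (log2 0.27, SE 0.18). Sc5d, a sterol desaturase, measured 33.9, 27.6 and 29.0 CPM in KO_FI and 27.6, 25.0 and 28.9 CPM in WT_FI (log2 0.15, SE 0.13). Nsdhl measured 31.9, 73.3 and 48.1 CPM in KO_FI and 24.9, 45.7 and 43.0 CPM in WT_FI (log2 0.43, SE 0.36). The ranges of the genotypes overlapped in all 3. Acacb measured 90.4, 95.8 and 83.2 CPM in KO_FI and 88.9, 72.4 and 71.0 CPM in WT_FI (log2 0.21, SE 0.12). Acly, the ATP citrate lyase that supplies cytosolic acetyl-CoA, measured 152, 193 and 178 CPM in KO_FI and 138, 173 and 168 CPM in WT_FI (log2 0.13, SE 0.14). Scd1 measured 293, 439 and 352 CPM in KO_FI and 258, 336 and 359 CPM in WT_FI (log2 0.19, SE 0.21). These too overlapped.

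Among the regulators, Srebf1 measured 221, 256 and 231 CPM in KO_FI and 187, 229 and 219 CPM in WT_FI, and its log2 fold change of 0.15 had a 95% interval of -0.15 to 0.46. Srebf2 measured 393, 489 and 427 CPM in KO_FI and 363, 395 and 371 CPM in WT_FI, with an interval of -0.11 to 0.54 around 0.21. Insig1 measured 204, 248 and 237 CPM in KO_FI and 179, 311 and 308 CPM in WT_FI, with an interval of -0.78 to 0.36 around -0.21. All 3 overlapped between genotypes. The genes that were low in index 0 had the widest errors: the SE of Idi1 was 1.52 over 6 libraries and 0.13 without both libraries of index 0, with log2 fold changes of -0.21 in each. Likewise the log2 fold change of Fdps was -0.21 (SE 0.95) over 6 libraries and -0.24 (SE 0.16) without index 0, and that of Acaca was 0.14 (SE 0.74) and 0.15 (SE 0.13). Without index 0 none of the 31 genes passed, and the smallest adjusted p among them was 0.585 (edgeR, Insig1), a setting chosen after the data were seen.

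In proliferating cells none of the 31 genes passed in KO_Cul against WT_Cul (0% of 13963 genes passed by edgeR, and 112 genes had an unadjusted p under 0.05, none of the 31 among them), and DESeq2 and limma called 0 of the 31. Estimates ran from -0.49 to 0.47 on the log2 scale, with medians of 0.10 for the sterol steps, -0.01 for transport and control and 0.02 for the fatty acid branch, beside 0.02 over all genes. Without overlap, 5 genes lay higher in KO_Cul (Mvk, Pmvk, Fdft1, Tm7sf2 and Srebf1, against 11.8% of all genes) and 2 lower (Stard4 and Acaca, against 11.1%).

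Pmvk measured 7.36 and 5.98 CPM in KO_Cul and 5.37 and 4.28 CPM in WT_Cul (log2 0.47, SE 0.33). Mvk, the mevalonate kinase, measured 12.01 and 14.4 CPM in KO_Cul and 10.8 and 11.1 CPM in WT_Cul (log2 0.27, SE 0.26). Tm7sf2 measured 1.89 and 2.20 CPM in KO_Cul and 1.55 and 1.57 CPM in WT_Cul (log2 0.39, SE 0.41). In these 3 genes both KO_Cul values lay above both WT_Cul values, and none of the 3 passed the test. In the fatty acid branch Acaca measured 164 and 153 CPM in KO_Cul and 176 and 170 CPM in WT_Cul (log2 -0.13, SE 0.19). Fads2 measured 5.47 and 4.06 CPM in KO_Cul and 5.46 and 2.18 CPM in WT_Cul (log2 0.32, SE 0.54), and Fasn measured 548 and 337 CPM in KO_Cul and 456 and 359 CPM in WT_Cul (log2 0.12, SE 0.32). Fads2 and Fasn overlapped between genotypes. Srebf1 measured 101 and 91.3 CPM in KO_Cul and 78.3 and 83.1 CPM in WT_Cul, and its log2 fold change of 0.25 had a 95% interval of -0.23 to 0.74. Srebf2 measured 189 and 175 CPM in KO_Cul and 177 and 172 CPM in WT_Cul (interval -0.42 to 0.54), and Insig1 measured 35.2 and 35.5 CPM in KO_Cul and 45.1 and 32.01 CPM in WT_Cul (interval -0.75 to 0.50). Both overlapped between genotypes.

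**Figure D5:**
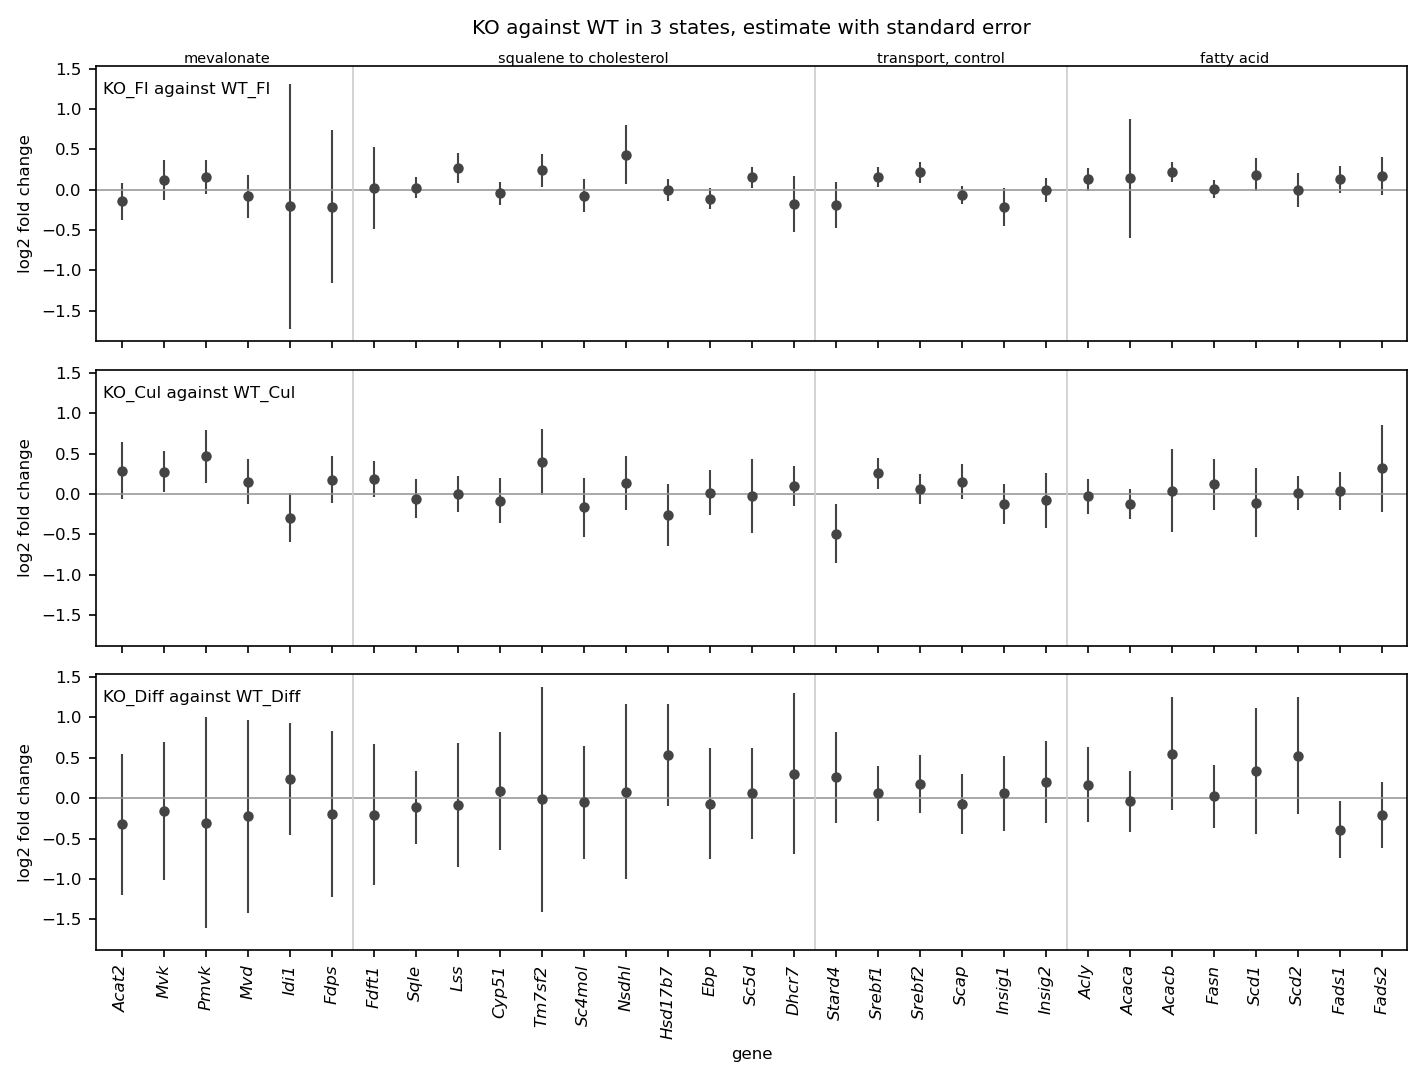
Log2 fold change (y axis) of KO against WT with its standard error for the 31 genes (x axis, by step) in freshly isolated, proliferating and differentiation medium cells. All estimates lie between -0.49 and 0.55, and the bars are widest for Idi1, Fdps and Acaca in freshly isolated cells and for the sterol steps in differentiation medium.

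Whether the KO effect differed from state to state was tested on the 3 joined KO tables. None of the 31 genes and none of 16698 genes passed in any of the 3 contrasts (edgeR, with 196, 211 and 245 genes at an unadjusted p under 0.05, none of the 31 among them). The smallest p among the 31 was 0.144, for Fads1 in Diff minus FI (log2 difference -0.49, SE 0.31). Of the related lists, no gene passed in any KO comparison by edgeR, with none at an unadjusted p under 0.05.

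Per length, on the authors' FPKM scale (fragments relative to transcript length and library total), the order of the genes shifted between states, given here as levels without a test. Scd2 led in freshly isolated cells of the FI table, at 114.7 ± 12.4 FPKM in KO_FI and 115 ± 26.1 FPKM in WT_FI (SD, n = 3 each), followed by Srebf2 and Insig1, which did not differ from each other beyond their spread. In WT_FI of the table of WT states Scd2 also led, at 78.0 ± 2.52 FPKM (SD, n = 2), but Insig2 and Fads1 followed. Acly led in proliferating cells of the Cul table, at 47.0 ± 6.45 FPKM in KO_Cul and 48.1 ± 3.57 FPKM in WT_Cul (SD, n = 2 each), with Fasn next at 44.1 ± 15.6 FPKM in KO_Cul and 40.6 ± 6.42 FPKM in WT_Cul, within the spread of KO_Cul. Fdps led in differentiation medium, at 168 and 895 FPKM in KO_Diff and 250 and 960 FPKM in WT_Diff. Acacb stood last of the 31 genes in the Cul and Diff tables, at 0.220 ± 0.0494 FPKM in KO_Cul and 0.214 ± 0.0987 FPKM in WT_Cul, while in freshly isolated cells of the FI table it stood at 9.87 ± 0.702 FPKM in KO_FI and 8.54 ± 1.18 FPKM in WT_FI (SD, n = 3 each).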

How the data were processed

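PolyA RNA-seq of mouse satellite cells was analysed, and the ChIP and input samples were not analysed here. Per the submitters' processing notes, Bowtie, TopHat, SICER and Cuffdiff were used on the build mm9. Which tool did what, and in which version, is not given in the sources used here. Per the file headers, the deposited tables give an estimated count of fragments for each gene and library, not normalised, and an FPKM value that the authors scaled separately in each of 4 tables. The tables give gene symbols without positions. The letter A, which names 1 condition in the tables, was read as the proliferating state because the other conditions were accounted for. Genes whose status was not OK in every library of a table were left out (22, 12, 19 and 27 in the FI, Cul, Diff and WT states tables), none of them among the 32. No 2 libraries of a group agreed within sampling noise (lowest chi-square per degree of freedom 27.9 over 22 pairs).

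Estimated counts were rounded to whole numbers and each table was fitted alone with edgeR 4.0.16 in R 4.3.3 (robust quasi-likelihood F test, two-sided, after filterByExpr and TMM scaling). Adjusted p-values are Benjamini-Hochberg values over every gene of that fit, called at 0.05. Intervals are 95% intervals of the fit. Fragments without molecular identifiers are not independent molecules, and near-identical genes or overlapping antisense genes may share fragments, since strand is not stated. Alternatives were DESeq2 1.42.0, other scalings, no filter, limma 3.58.1 on log2(FPKM + 1) and log2(FPKM + 0.1) with at least 1 FPKM in 2 libraries, leaving out each library, and the index as a block. The script was tested on simulated data. In the FI table the deviations of same-index libraries from their group means went together (correlations 0.866, 0.683 and 0.584 in 3 pairs). Index 0 stood apart in both genotypes, and correlations between libraries of unlike index were not computed. These values therefore cannot show that indices 1 and 2 are pairs. The block changed no call of the 31 genes. Counts of estimates and medians are descriptions of the list.

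The genes, the lists and the tests were chosen with earlier results of these data known. The text names every gene that passed between WT states, the 3 smallest p-values of the sterol steps and of the fatty acid branch and Srebf1, Srebf2 and Insig1 in each KO comparison, and 2 genes of each related list. Others were named after their values were seen. Promoters were matched by symbol (1 by an older symbol, Sc4mol).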

Additional observations from a re-analysis of the deposited data

Results flagged for a closer look

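WT libraries were set together across 2 tables, on CPM by library totals. In proliferating WT cells (4 libraries) 4 of 31 genes held a library far from the others, and in freshly isolated WT cells (5 libraries) 0 of 31 did. Over both groups this made 4 of 62 checks, and all 4 fell in WT_Cul libraries of the table of WT states. The 1 in 20 expected of independent checks is no measure here. The checks join 2 tables processed separately, and genes of a library are not independent. The 4 genes are therefore listed as a description, and the share over all genes is not given. Mvd (18.04 CPM, the others 6.61 to 8.48) and Ebp, a sterol isomerase (66.0 CPM, the others 20.9 to 27.1), were high in the WT_Cul library of index 0 in the table of WT states. Stard4 (14.2 CPM, the others 4.86 to 5.88) and Scd2 (234 CPM, the others 125 to 135.7) were high in that of index 1. The tables were processed separately.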

How the results depend on the processing

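In the KO comparisons 0 of the 31 genes passed under every alternative run. Over all genes, KO_FI against WT_FI gave 118 calls with DESeq2, 1 and 3 with limma (pseudocounts 1 and 0.1) and 1 without both libraries of index 0, a setting chosen after seeing the data. KO_Cul against WT_Cul gave 3 with DESeq2, 5 and 9 with limma and 3 with the replicate block, and KO_Diff against WT_Diff gave 147 with the block. The difference of the KO effect between Diff and FI gave 2 with the block. In WT_Cul against WT_FI the number of the 31 that passed was 7 with DESeq2, 6 and 4 with limma, 8 with the replicate block and 1 to 13 with 1 library left out, and over all genes 2063 to 8050 with 1 library left out. The block used the table index, which with 2 pairs is only a shared number in the Cul, Diff and WT states tables (correlations of deviations 0.732, 0.787 and 0.387). No test there rests on it as pairing, and ratios within an index of the Diff table are a description. The cause of these changes was not tested.

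Log2 fold changes of genes that did not pass changed sign in the KO comparisons. In KO_Diff against WT_Diff, Idi1 was -0.043 and -0.045 with limma and -0.045 with the replicate block, and Insig1 was -0.018 with limma (both pseudocounts) and -0.018 with the block. With 1 library left out the ranges were in KO_Cul against WT_Cul, Fads2 -0.20 to 1.12, Fasn -0.29 to 0.42, Srebf2 -0.011 to 0.12, Insig1 -0.35 to 0.13; in KO_Diff against WT_Diff, Hsd17b7 -0.55 to 1.15, Acat2 -1.56 to 0.78, Idi1 -0.96 to 0.89, Acacb -0.23 to 1.25, Scd2 -0.67 to 1.18, Srebf1 -0.077 to 0.22, Insig1 -0.47 to 0.46. With 2 libraries a group, 1 left out leaves a lone library that is assumed to vary like the others.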
